A study of Mus musculus with 12 samples.

Results

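The ubiquitin-conjugating (E2) enzymes were described in the hippocampus of aged Tg2576 mice after 4 weeks of treatment with inhibitors of histone deacetylases (HDACs) and phosphodiesterases (PDEs). The family was taken as all genes whose symbol begins with Ube2 and that own a probe set annotated to no other symbol, which gave 33 of the 22180 genes with such a probe set. A gene with several such probe sets was represented by the brightest, judged by the mean of all 12 arrays. Ubiquitin is first activated by an E1 enzyme, is then passed to the active-site cysteine of an E2, and is placed on a substrate with the help of an E3 ligase, and the E2 largely sets which kind of ubiquitin chain is built. Chains linked through K48 or K11 mostly send proteins to the proteasome, whereas K63 chains serve signalling, endocytosis and DNA repair. In neurons this system clears misfolded proteins and remodels synapses, and ubiquitin is found in the inclusions of Alzheimer's disease.

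The 12 arrays fell into 4 groups of 3, which had received CM-695, CM-414, the combination of SAHA and tadalafil, or vehicle. CM-695 inhibits HDAC6 and PDE9, CM-414 inhibits class I HDACs, HDAC6 and PDE5, SAHA (vorinostat) is an HDAC inhibitor, and tadalafil is a PDE5 inhibitor. All animals carried a transgene for human APP, the amyloid precursor, in its Swedish mutant form, were 16 to 18 months old and were female according to the methods; in Tg2576 mice the transgene is driven by the hamster prion promoter, while the labels of the arrays give the strain as B6.Cg-Tg(APPswe)E1-2Dbo/J. CM-695 was given intraperitoneally at 40 mg/kg 6 times a week; the sources used here give no dose of the other treatments for these animals. The vehicle is named saline in the labels, and the methods describe saline with 10% DMSO and 10% Tween-20. The labels of all arrays state that the mice had been through fear conditioning and the Morris water maze during the treatment and that tissue was taken 24 hours after it ended, whereas the methods describe these tests for CM-695 and vehicle mice and count the 24 hours from the last trial of the maze. No arrays of non-transgenic mice were analysed here, so each comparison is between transgenic animals.

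Each value below is a deposited log2 intensity (RMA, 1 value per probe set and array), and a difference of log2 values is a log2 fold change. Probe sets differ in brightness for reasons of their probes, so values of different genes were not ranked as amounts of RNA. All 11 hippocampal neuron markers lay above the minimum of log2 4 on every array, Camk2a and Snap25 with means of 12.26 and 13.16. Array pairs correlated at 0.978 to 0.991 and no pair was identical. The first principal component of all probe sets held 22.7% of the variance. On it, vehicle replicate 2 (40.3), replicate 3 of CM-695 (35.6) and the first array of SAHA and tadalafil (24.1) stood apart at the upper end. They are the arrays that stood apart in the text below. The other arrays ran from -30.3 to 5.47. Of these, SAHA and tadalafil replicate 2 (-30.3) and vehicle replicate 3 (-25.7) were farther from 0 than 24.1 and were kept, so the choice of arrays was one-sided. Marker lists moved too: 10 of 11 microglia markers were lower with CM-695 than with vehicle, 11 of 11 with CM-414 and 9 of 11 with SAHA and tadalafil, and 13, 12 and 11 of 13 markers of the neighbouring thalamus and habenula were lower in the same 3 comparisons. None of these markers lay at or below the minimum on average, and the mean microglia level ran from 7.66 to 7.95 in CM-695 arrays, 7.82 to 7.93 in CM-414 arrays, 7.87 to 8.04 in SAHA and tadalafil arrays, and 7.99 to 8.27 in vehicle arrays. For thalamus and habenula it ran from 7.02 to 7.18, 7.07 to 7.16, 7.14 to 7.77, and 7.06 to 7.91 in the same order. The part of these shifts, and of the arrays that stood apart, in the values of the E2 genes was not tested, and in bulk tissue fewer cells of a type cannot be told apart from less RNA per cell.

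The upstream sequences of 4 of the genes with an unadjusted p under 0.05 against vehicle (limma) are shown because they differ in the promoter elements they hold. For Ube2l3 and Ube2h only the brightest probe set passed this threshold, as given below. The stretches lie outside the annotated gene (RefSeq, GRCm38.p6), run 5′ to 3′ on the gene's strand and end at the base before it. Capitals mark GC boxes, CCAAT boxes, half-sites and full sites of the cyclic AMP response element (CRE), and heat shock element cores, on either strand.
Ube2d3, chr3:135437982-135438231 (plus strand): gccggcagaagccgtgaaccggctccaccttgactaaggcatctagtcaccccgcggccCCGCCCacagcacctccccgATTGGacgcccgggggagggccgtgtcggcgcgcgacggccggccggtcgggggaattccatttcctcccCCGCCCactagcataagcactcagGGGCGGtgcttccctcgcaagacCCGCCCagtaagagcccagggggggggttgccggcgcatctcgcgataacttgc
Ube2k, chr5:65536995-65537244 (plus strand): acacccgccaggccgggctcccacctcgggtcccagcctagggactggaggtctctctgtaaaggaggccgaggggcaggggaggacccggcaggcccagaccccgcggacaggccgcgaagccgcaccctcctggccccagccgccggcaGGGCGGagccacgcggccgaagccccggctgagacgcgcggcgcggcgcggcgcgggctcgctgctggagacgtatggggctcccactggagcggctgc
Ube2l3, chr16:17201513-17201742 (minus strand): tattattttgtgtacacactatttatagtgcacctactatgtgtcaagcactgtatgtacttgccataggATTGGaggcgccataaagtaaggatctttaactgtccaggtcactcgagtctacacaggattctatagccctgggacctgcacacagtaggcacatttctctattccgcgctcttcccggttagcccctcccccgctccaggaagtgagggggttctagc
Ube2h, chr6:30304540-30304789 (minus strand): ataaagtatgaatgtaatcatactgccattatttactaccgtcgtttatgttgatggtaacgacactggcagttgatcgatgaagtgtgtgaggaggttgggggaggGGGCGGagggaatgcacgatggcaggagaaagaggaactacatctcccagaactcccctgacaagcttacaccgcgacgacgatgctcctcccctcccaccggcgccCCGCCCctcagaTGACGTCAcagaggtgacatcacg

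Of the 33 genes, 28 had a window of 300 bases (250 before the annotated start and 50 after it) in the RefSeq promoter table. A GC box, searched as GGGCGG on both strands, stood in 21 of these 28 genes (75%), against 38.2% of the 27025 genes and 49.2% of the 17492 protein-coding genes with a window. A CCAAT box stood in 8 genes (28.6%, against 41.1% of all genes and 42.3% of protein-coding genes). The CRE half-site, searched as TGACG on both strands, stood in 9 (32.1%, against 23% of all genes and 26.2% of protein-coding genes). The full CRE, searched as TGACGTCA, contains a half-site on each strand. It was found in 2 genes, Ube2b and Ube2h (7.14%, against 2.03% of all genes and 2.54% of protein-coding genes). The heat shock element core GAANNTTC was found in none, against 9.04% of all genes and 8.44% of protein-coding genes. Ube2d3 held 4 GC boxes upstream, the nearest 49 bases before its start, whereas Ube2l3 held none in a stretch with a GC content of 48.7%, against 69.6% and 76.8% in the stretches of Ube2d3 and Ube2k. A match of letters is a description of the sequence and not of binding.

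Across the family, 30 genes lay above log2 4 on all arrays, and the group means of most of them differed from vehicle by less than the spread between arrays. With CM-695, 21 of 30 tested genes had a mean above vehicle and 9 below, with a median log2 fold change of 0.046, against 0.007 over all probe sets and 0.019 over all genes. With CM-414, 23 of 30 were above and 7 below, with a median of 0.066, against 0.004 over all probe sets and 0.009 over all genes. With SAHA and tadalafil, 10 of 31 were above and 21 below. The median was -0.015, against -0.009 over all probe sets and -0.014 over all genes. Among these 10 was the dim Ube2dnl1 (0.08), which lay above log2 4 on all arrays of this comparison but not on all 12. Leaving out 1 array moved this last median between -0.042 (without replicate 3 of the combination) and 0.017 (without vehicle replicate 1), so its sign rested on single arrays, and without the arrays that stood apart the medians were 0.020 with CM-695, 0.036 with CM-414, and -0.029 with the combination. These counts stand against a background in which 52%, 51.2% and 47.3% of probe sets were above vehicle, and the comparisons share the vehicle arrays. Bright genes as a whole leaned upwards: among single-symbol genes with a mean over log2 8, 67.5% were above vehicle with CM-695, 63.2% with CM-414, and 51.1% with SAHA and tadalafil. Of the 18 Ube2 genes with such a mean, 16, 16 and 6 were above vehicle in these comparisons.

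Few members passed a test. At an unadjusted p under 0.01 (limma, the threshold of the methods), CM-695 changed 0 of 30 genes against a background of 1.12% of probe sets, CM-414 changed 2 of 30 against 2.45%, and SAHA and tadalafil changed 0 of 31 against 1.12%. At an unadjusted p under 0.05 the counts were 2, 4 and 1, against backgrounds of 5.09%, 9.35% and 5.23%. The CM-695 fit held only the arrays of its own groups and the other fits held all arrays, so these counts are not like for like. With all arrays in the fit, CM-695 changed 1 gene at 0.01 (Ube2d3), beside the 2 of CM-414. With only the arrays of its own groups in the fit, CM-414 changed 1 gene (Ube2d3), beside the 0 of CM-695. No Ube2 gene passed an adjusted p of 0.05 in any of the 6 comparisons between groups, against a background of 0.00284% for SAHA and tadalafil against vehicle and 0% for the other comparisons, and the smallest adjusted p of a member against vehicle was 0.384 (Ube2d3 with CM-414). In the comparisons with vehicle, the shares of members called were therefore close to those of all probe sets or rested on 1 or 2 genes. For CM-414 against SAHA and tadalafil, 6 of 30 genes were past 0.05, against a background of 6.47%. By overlap of arrays, the 3 treated arrays all lay above the 3 vehicle arrays for 4 of 30 genes with CM-695 (background 5.28%). The count was 7 of 30 with CM-414 (9.85%) and 1 of 31 with SAHA and tadalafil (4.41%). The treated arrays all lay below for 0, 0 and 1 gene in the same order (5.15%, 7.38% and 4.88%).

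**Figure D1:**
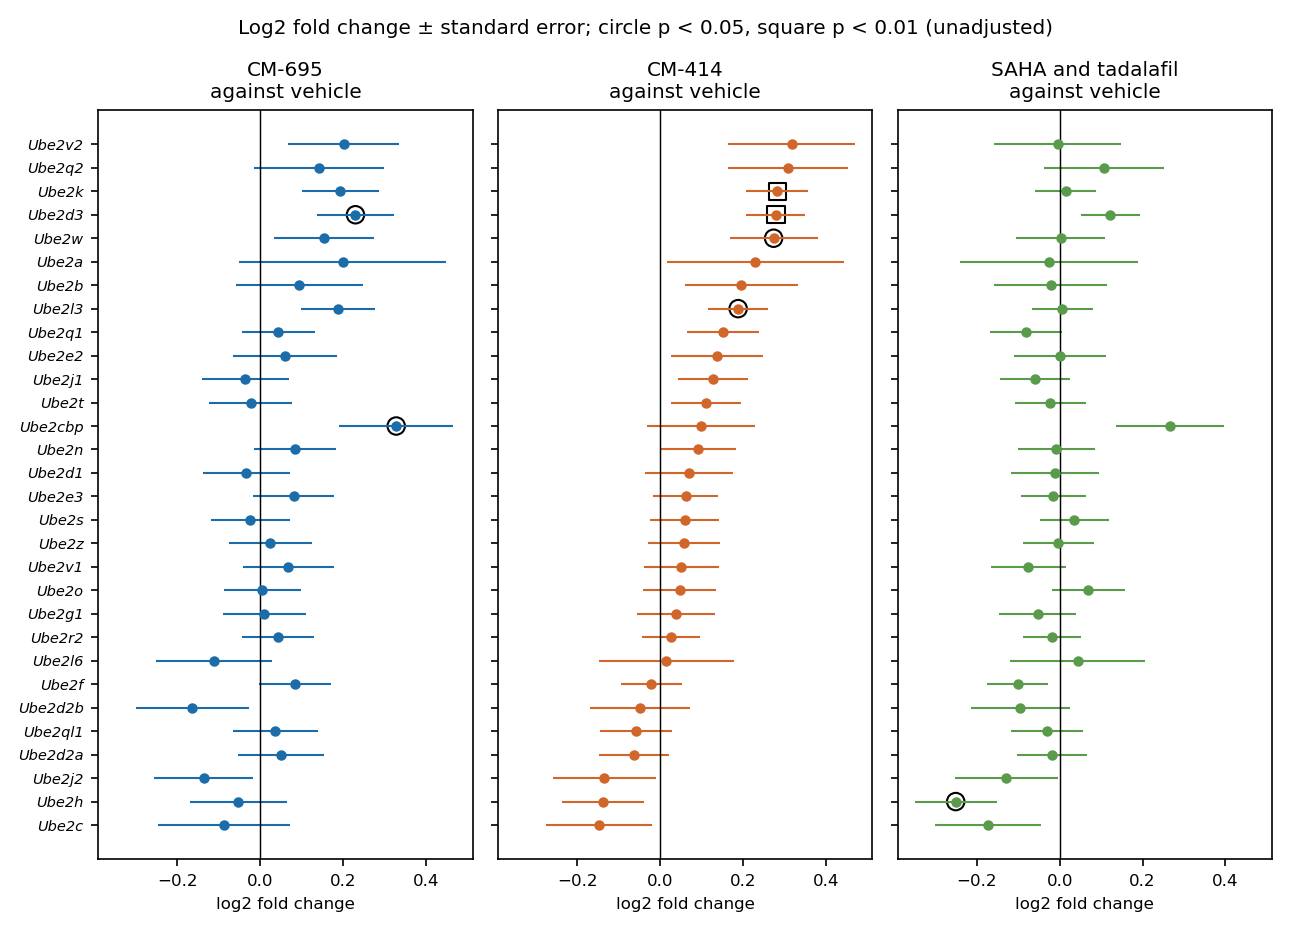
Log2 fold change against vehicle (x axis) with its standard error for the 30 Ube2 genes above log2 4 on all arrays (y axis, ordered by the CM-414 value), in panels for CM-695, for CM-414 and for the combination of SAHA with tadalafil. A circle marks an unadjusted p under 0.05 and a square one under 0.01. Ube2d3 and Ube2k with CM-414 carry the squares, and most error bars cross 0. The CM-695 fit held only the arrays of its own groups and the other fits held all arrays.

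Of the E2s that start chains together with RING ligases, Ube2d3 was the one gene whose treated arrays lay above all vehicle arrays in each of the 3 comparisons. Ube2d3 belongs to the UBE2D group, which works with a wide range of RING E3 ligases. Its log2 values were 10.36, 10.21 and 10.35 with CM-695, 10.38, 10.32 and 10.37 with CM-414, 10.21, 10.16 and 10.24 with SAHA and tadalafil, and 10.09, 10.09 and 10.05 with vehicle. The CM-414 and CM-695 arrays were highest, with CM-695 replicate 2 among the values of SAHA and tadalafil, and the vehicle arrays were the lowest of the 12. Ube2d3 rose 1.21-fold with CM-414 (log2 0.28, SE 0.072, adjusted p = 0.384, limma), past the unadjusted threshold of 0.01. With CM-695 the log2 fold change was 0.23 (SE 0.093, adjusted p = 0.980), past the unadjusted threshold of 0.05, and with SAHA and tadalafil it was 0.12 (95% interval -0.04 to 0.28, adjusted p = 0.977). The CM-414 value stayed past 0.01 with each single array left out and, at 0.29, without the arrays that stood apart (adjusted p = 0.250). The CM-695 value lost its call at 0.05 with any 1 of 5 of the 6 arrays left out, all but CM-695 replicate 2. It was 0.21 and not past 0.05 without the arrays that stood apart (adjusted p = 0.517). The CM-695 fit held only the 6 arrays of its groups and the CM-414 fit all 12, so these losses are not like for like. With all 12 arrays in the fit, the CM-695 value also passed the unadjusted threshold of 0.01.

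Its relatives did not show the same pattern. Ube2d1, of the same group, had log2 fold changes of -0.03 with CM-695, 0.07 with CM-414, and -0.01 with SAHA and tadalafil. Ube2d2a, the closest to Ube2d3 in function, gave 10.38, 10.33 and 10.59 with CM-695, 10.36, 10.30 and 10.30 with CM-414, 10.45, 10.30 and 10.34 with SAHA and tadalafil, and 10.36, 10.40 and 10.40 with vehicle, so that CM-695 replicate 3 stood above all others and the groups overlapped. Ube2d2b, a retrogene of this group, had fold changes of -0.16, -0.05 and -0.10 on the log2 scale. Ube2e2 and Ube2e3, E2s with an extended N-terminus, had log2 fold changes of 0.06 and 0.08 with CM-695, 0.14 and 0.06 with CM-414, and 0.00 and -0.02 with SAHA and tadalafil.

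Ube2w, which attaches ubiquitin to the N-terminus of substrates, was higher with CM-414 at the looser threshold. Its values were 9.24, 9.26 and 8.96 with CM-695, 9.39, 9.24 and 9.19 with CM-414, 8.91, 8.99 and 9.11 with SAHA and tadalafil, and 9.08, 8.87 and 9.05 with vehicle. All CM-414 arrays lay above all vehicle arrays, while CM-695 replicate 3 fell among vehicle (log2 fold change 0.27 with CM-414, SE 0.106, adjusted p = 0.484, and 0.15 with CM-695, adjusted p = 0.992). The CM-414 call at 0.05 was lost without vehicle replicate 2 or CM-414 replicate 1. The UBE2D N-terminal-like genes Ube2dnl1 and Ube2dnl2 were near or below the minimum. Ube2dnl1 ran from 3.90 to 4.55 with CM-695, 3.84 to 4.49 with CM-414, 4.15 to 4.85 with SAHA and tadalafil, and 4.19 to 4.43 with vehicle. Ube2dnl2 gave 2.98, 2.91 and 3.02 with CM-695, 3.05, 3.19 and 3.06 with CM-414, 3.21, 3.51 and 2.77 with SAHA and tadalafil, and 3.15, 3.12 and 3.26 with vehicle, and was not tested.

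Among the E2s that extend K48 and K11 chains, Ube2k rose with CM-414. Ube2k (E2-25K, also known as huntingtin-interacting protein 2) builds K48 chains, and the human enzyme has been linked to amyloid-β neurotoxicity. Its log2 values were 10.52, 10.38 and 10.39 with CM-695, 10.60, 10.46 and 10.49 with CM-414, 10.26, 10.23 and 10.26 with SAHA and tadalafil, and 10.28, 10.20 and 10.22 with vehicle. The arrays formed 2 ranges that did not overlap, with all CM-695 and CM-414 arrays above all arrays of SAHA and tadalafil and of vehicle. The rise with CM-414 was 1.22-fold (log2 0.28, SE 0.075, adjusted p = 0.385, limma), past the unadjusted threshold of 0.01. With CM-695 the log2 fold change was 0.19 (95% interval -0.03 to 0.41, adjusted p = 0.992), and with SAHA and tadalafil it was 0.01 (95% interval -0.15 to 0.18, adjusted p = 0.997). Ube2k was the 1 member called by the test for any difference among the 4 groups (F = 6.88, adjusted p = 0.598, limma), with a background of 1.62% of probe sets past 0.01 and 0% past an adjusted 0.05. This call was lost without the arrays that stood apart, with the replicate number as a block, after a repeated quantile normalization, and with any 1 of the 9 arrays outside the CM-695 group left out. Without the arrays that stood apart, the CM-414 value was 0.27 (adjusted p = 0.284), and without CM-414 replicate 1 it was 0.24, and neither passed 0.01.

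The other chain-extending E2s stayed within their spread. Ube2c, the E2 that starts chains for the anaphase-promoting complex and is known from dividing cells, gave 5.30, 4.87 and 5.01 with CM-695, 5.01, 5.003 and 4.99 with CM-414, 4.90, 5.04 and 4.98 with SAHA and tadalafil, and 5.27, 5.28 and 4.89 with vehicle. Its dim values overlapped between groups, and the log2 fold changes were -0.09, -0.15 and -0.17 (adjusted p from 0.757 to 0.996). Ube2s, which extends K11 chains for the same complex, had log2 fold changes of -0.02, 0.06 and 0.03, and Ube2g1 and Ube2r2, builders of K48 chains, ranged from -0.05 to 0.04 in the 3 comparisons. Ube2r2 was the steadiest of the 33 genes, with a range of 0.128 over the 12 arrays.

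**Figure D2:**
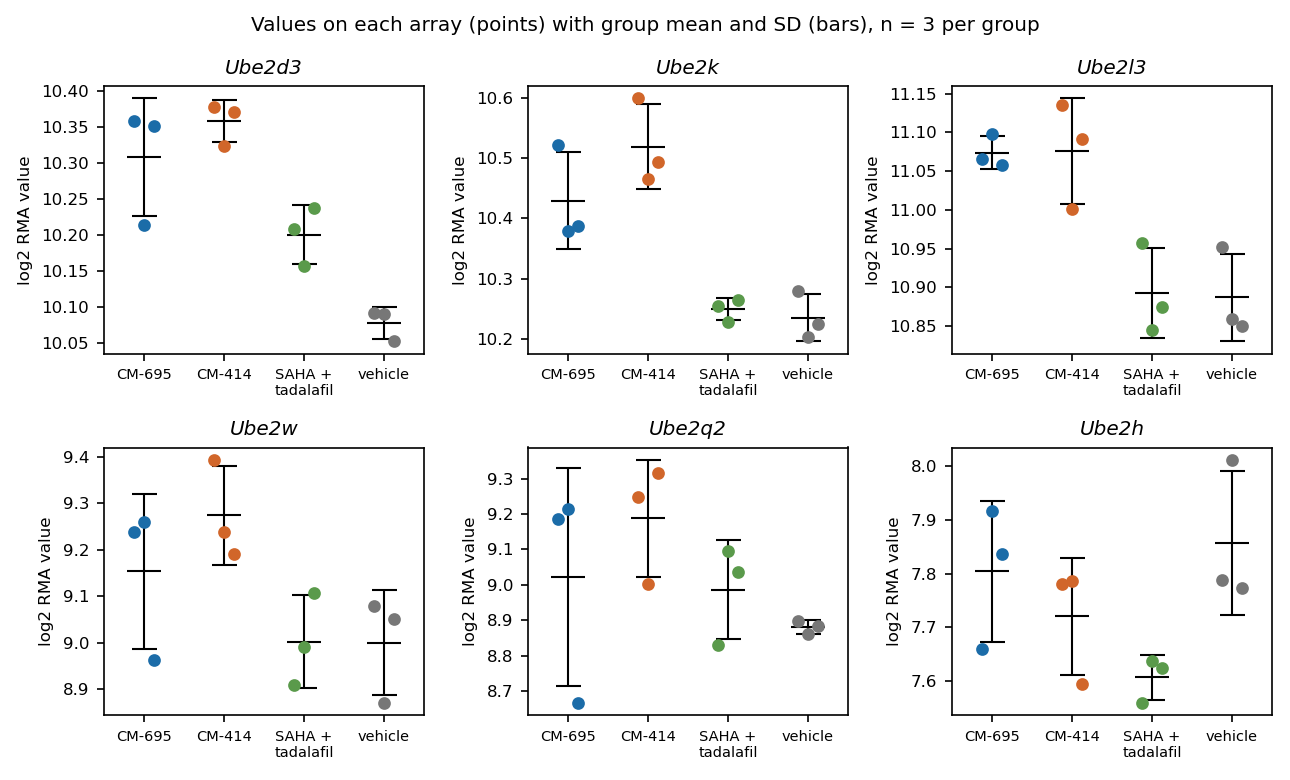
Log2 RMA values (y axis) of Ube2d3, Ube2k, Ube2l3, Ube2w, Ube2q2 and Ube2h on each array (points) with the mean and SD of each group of 3 (bars); groups from left to right are CM-695, CM-414, the combination of SAHA with tadalafil, and vehicle. The y axes do not start at 0. Ube2k and Ube2l3 show all CM-695 and CM-414 arrays above the other 6, and Ube2h shows SAHA and tadalafil lowest on average.

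Ube2l3 (UbcH7), the E2 of HECT ligases and of RBR ligases such as parkin, had the same grouping of arrays as Ube2k. Its values were 11.07, 11.10 and 11.06 with CM-695, 11.13, 11.001 and 11.09 with CM-414, 10.96, 10.85 and 10.88 with SAHA and tadalafil, and 10.95, 10.86 and 10.85 with vehicle. All CM-695 and CM-414 arrays were above all arrays of the other groups. The log2 fold change was 0.19 with CM-414 (SE 0.073, adjusted p = 0.485), 0.19 with CM-695 (SE 0.089, adjusted p = 0.992), and 0.01 with SAHA and tadalafil (adjusted p = 0.998, limma). The CM-695 fit held only the arrays of its own groups and the CM-414 fit all arrays, so their SEs and calls are not like for like. In these fits the CM-414 value passed the unadjusted threshold of 0.05 and the CM-695 value did not. Without the arrays that stood apart the CM-414 value was 0.17 and did not pass it (adjusted p = 0.400), and the call was also lost without vehicle replicate 2 or 3 or CM-414 replicate 1 or 3.

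This result belonged to 1 of the 3 probe sets of Ube2l3. The probe set described above had a mean of 10.98, and the other ones had means of 9.24 and 7.37. The probe set at 9.24 gave log2 fold changes of 0.05 with CM-695, -0.003 with CM-414, and -0.003 with SAHA and tadalafil, and correlated with the brightest one at 0.26 over the 12 arrays. The probe set at 7.37 gave -0.16, -0.12 and 0.06 and correlated at -0.28. The probe sets of Ube2d2a and Ube2h also disagreed. For Ube2d2a the log2 fold changes with CM-414 were -0.06, 0.0004 and -0.42 in order of decreasing brightness. Which transcripts each probe set reads was not analysed here.

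**Figure D3:**
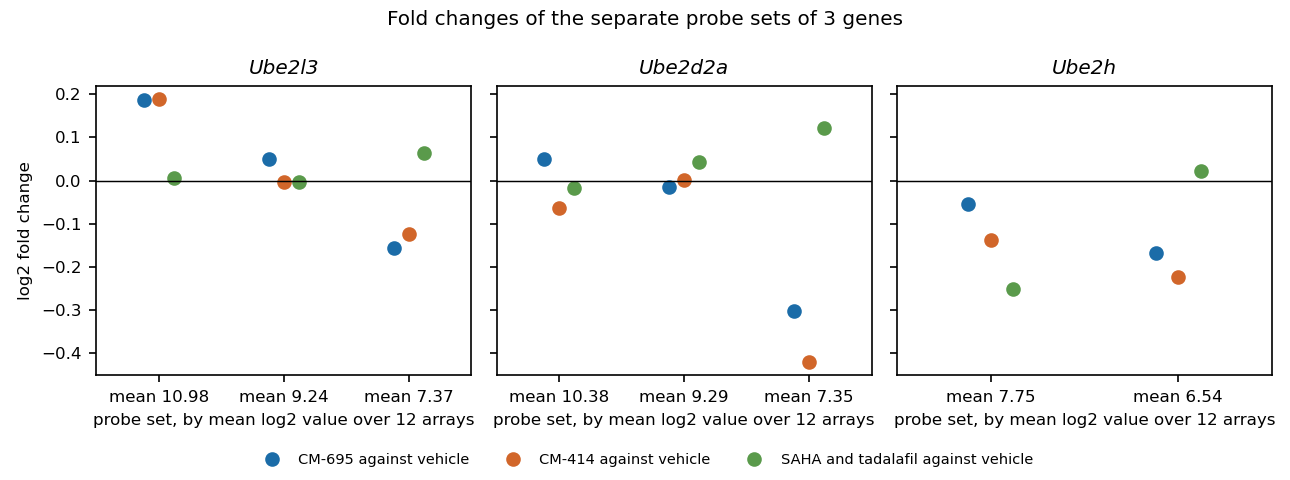
Log2 fold change against vehicle (y axis) of each probe set of Ube2l3, Ube2d2a and Ube2h (x axis, in order of mean log2 value over the 12 arrays); colours are CM-695, CM-414 and the combination of SAHA with tadalafil, each against vehicle. For Ube2l3 the probe set with a mean of 10.98 gave 0.19 with both CM compounds, the one with a mean of 9.24 lay near 0, and the one with a mean of 7.37 lay at -0.16 and -0.12.

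Of the E2s of the endoplasmic reticulum, which serve the disposal of misfolded proteins from that organelle, Ube2j1 was higher on all CM-414 arrays than on any vehicle array. Its values were 9.40, 9.38 and 9.16 with CM-695, 9.53, 9.42 and 9.48 with CM-414, 9.35, 9.24 and 9.28 with SAHA and tadalafil, and 9.39, 9.30 and 9.35 with vehicle. The CM-695 arrays spread on both sides of vehicle. The log2 fold changes were -0.04 with CM-695 (adjusted p = 0.994), 0.13 with CM-414 (95% interval -0.06 to 0.31, adjusted p = 0.678), and -0.06 with SAHA and tadalafil (adjusted p = 0.996), none past either threshold. Ube2j2, the related enzyme, had values of -0.14, -0.13 and -0.13 on the log2 fold change scale, none past either threshold. Ube2g2, another E2 of this route, was read only by probe sets shared with Sumo3 or Mir1930 and is not assigned values of its own; the probe set shared with Sumo3 had log2 fold changes of 0.21, 0.21 and -0.01.

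The genes of K63 chains leaned upwards with both CM compounds and passed no test. Ube2n (Ubc13) is the catalytic E2 and Ube2v1 and Ube2v2 are its partners without an active-site cysteine. Ube2n gave 9.30, 9.27 and 9.11 with CM-695, 9.34, 9.24 and 9.13 with CM-414, 9.003, 9.23 and 9.17 with SAHA and tadalafil, and 9.15, 9.20 and 9.08 with vehicle. Its groups overlapped, with log2 fold changes of 0.08, 0.09 and -0.01 (adjusted p = 0.992, 0.801 and 0.998). Ube2v1 gave 7.04, 7.19 and 6.999 with CM-695, 7.004, 7.15 and 7.02 with CM-414, 6.95, 6.87 and 6.97 with SAHA and tadalafil, and 6.87, 7.13 and 7.02 with vehicle, and vehicle spanned nearly the whole range. Ube2v2 gave 7.55, 7.67 and 7.25 with CM-695, 7.82, 7.34 and 7.66 with CM-414, 7.27, 7.08 and 7.50 with SAHA and tadalafil, and 7.21, 7.41 and 7.24 with vehicle. Ube2v2 had the largest positive log2 fold change with CM-414 among the tested members, 0.32, with a wide interval (-0.02 to 0.66, adjusted p = 0.562), and CM-414 replicate 2 lay within vehicle. With CM-695 it was 0.20 (adjusted p = 0.992). Without the arrays that stood apart, and so with 2 arrays a group, it was 0.38 and past 0.05 (adjusted p = 0.330).

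Of the genes of DNA damage tolerance, Ube2a and Ube2b are the mouse homologues of yeast Rad6 and attach ubiquitin to histone H2B and PCNA, and Ube2t is the E2 of the Fanconi anaemia pathway. Ube2a varied most widely among the 30 genes, and vehicle replicate 2 was its lowest array. Its values were 8.05, 7.80 and 7.70 with CM-695, 7.94, 7.90 and 7.81 with CM-414, 7.38, 7.72 and 7.78 with SAHA and tadalafil, and 7.87, 7.07 and 8.02 with vehicle. Ube2b gave 8.89, 8.66 and 8.58 with CM-695, 8.95, 8.79 and 8.68 with CM-414, 8.46, 8.68 and 8.63 with SAHA and tadalafil, and 8.75, 8.33 and 8.77 with vehicle. In both genes the lowest arrays were vehicle replicate 2 and SAHA and tadalafil replicate 1, and the groups of the comparisons with vehicle overlapped. The log2 fold changes with CM-695 were 0.20 and 0.09 (adjusted p = 0.992 for both), and with CM-414 they were 0.23 and 0.20 (adjusted p = 0.776 and 0.688). Ube2t, at 4.79 to 5.13 on all arrays, had log2 fold changes of -0.02, 0.11 and -0.02.

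Ube2a and Ube2b correlated at 0.92 over the 12 arrays, also after each group's mean was taken off (0.92), the highest of the 435 pairs among 30 genes. Ube2a and Ube2e2 correlated at 0.91 in the same way. The median over all pairs was 0.14, and 278 pairs were positive. With the first principal component of all probe sets, on which vehicle replicate 2 and SAHA and tadalafil replicate 1 are among the arrays apart, Ube2a, Ube2b and Ube2e2 correlated at -0.69, -0.66 and -0.69, whereas Ube2k and Ube2d3 did at -0.01 and 0.15. Ube2k correlated with Ube2l3 at 0.89 and with Ube2d3 at 0.88 over the 12 arrays, but at 0.50 and 0.56 within groups. These are descriptions of 12 arrays that share groups and normalization.

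**Figure D4:**
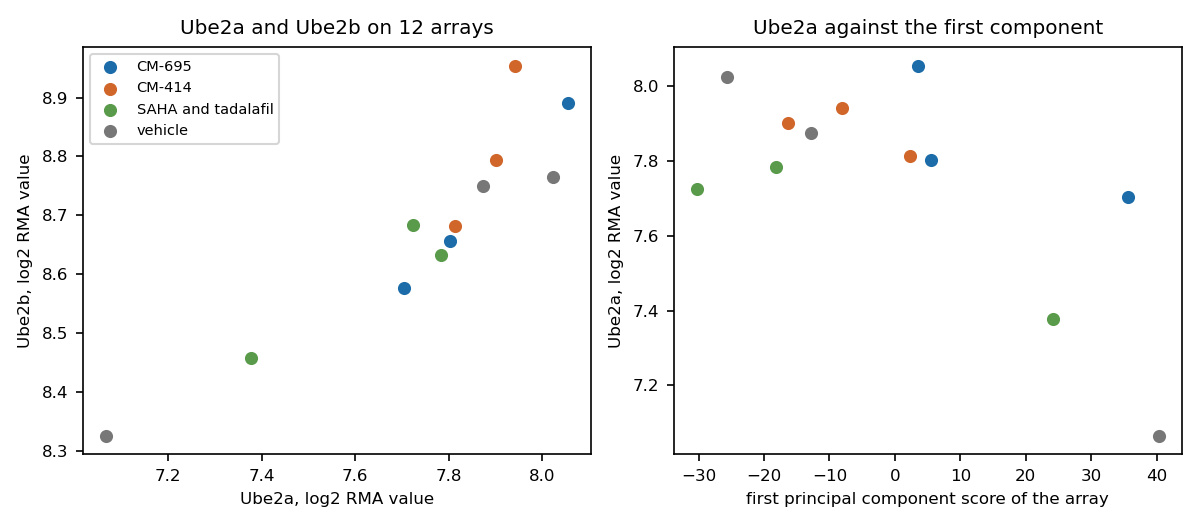
Left, log2 RMA values of Ube2a (x axis) and Ube2b (y axis) on the 12 arrays; right, Ube2a (y axis) against the array's score on the first principal component of all probe sets (x axis); colours are CM-695, CM-414, the combination of SAHA with tadalafil, and vehicle. The lowest array of both genes is vehicle replicate 2, with a score of 40.3, and the next is SAHA and tadalafil replicate 1, with 24.1.

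The E2s of ubiquitin-like proteins differed little from vehicle. Ube2f, a NEDD8-conjugating enzyme, gave 7.22, 7.204 and 7.23 with CM-695, 7.10, 7.198 and 7.04 with CM-414, 6.97, 7.10 and 7.03 with SAHA and tadalafil, and 7.14, 7.08 and 7.17 with vehicle. The CM-695 arrays were tight and above all others at the precision of the files, and the difference from vehicle was 0.08 on the log2 scale (95% interval -0.12 to 0.29, adjusted p = 0.992). Ube2l6, the interferon-induced E2 of ISG15, gave 6.78, 6.53 and 6.34 with CM-695, 6.86, 6.74 and 6.44 with CM-414, 6.44, 6.98 and 6.69 with SAHA and tadalafil, and 6.82, 6.59 and 6.57 with vehicle. It overlapped in every comparison, with log2 fold changes of -0.11, 0.01 and 0.04. Ube2z, which takes ubiquitin or FAT10 from Uba6, had values of 0.02, 0.06 and -0.003. Ube2m, the other NEDD8 E2, was not analysed here.

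Among the large or less studied E2s, Ube2h was lower with SAHA and tadalafil. Ube2h works with the CTLH (GID) ligase and is known for its induction in maturing red blood cells. Its values were 7.66, 7.92 and 7.84 with CM-695, 7.78, 7.79 and 7.60 with CM-414, 7.56, 7.64 and 7.62 with SAHA and tadalafil, and 7.79, 8.01 and 7.77 with vehicle. All SAHA and tadalafil arrays lay below all vehicle arrays (log2 fold change -0.25, SE 0.099, adjusted p = 0.931, limma, past the unadjusted threshold of 0.05), of which replicate 2 was the highest. Without the arrays that stood apart the value was -0.15 and not past it (adjusted p = 0.848), and the second probe set of the gene, with a mean of 6.54, gave 0.02.

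Ube2q1 and Ube2q2, E2s with a long N-terminal extension, were above all vehicle arrays with CM-414. Ube2q1 gave 10.61, 10.56 and 10.51 with CM-695, 10.80, 10.54 and 10.67 with CM-414, 10.55, 10.39 and 10.37 with SAHA and tadalafil, and 10.53, 10.52 and 10.49 with vehicle. Ube2q2 gave 9.19, 9.21 and 8.67 with CM-695, 9.25, 9.002 and 9.32 with CM-414, 8.83, 9.09 and 9.04 with SAHA and tadalafil, and 8.90, 8.86 and 8.88 with vehicle. CM-695 replicate 3 was the lowest array for Ube2q2 and lay below all vehicle arrays. The log2 fold changes with CM-414 were 0.15 (adjusted p = 0.619) for Ube2q1 and 0.31 (adjusted p = 0.550) for Ube2q2, neither past a threshold. For Ube2q2 with CM-695 it was 0.14 (adjusted p = 0.992). Without the arrays that stood apart, Ube2q2 was past 0.05 in both comparisons, at 0.31 with CM-695 (adjusted p = 0.366) and 0.30 with CM-414 (adjusted p = 0.309). Ube2ql1, a Ube2q-like gene, gave 10.21, 10.14 and 10.35 with CM-695, 10.22, 10.17 and 10.02 with CM-414, 10.15, 10.20 and 10.16 with SAHA and tadalafil, and 10.10, 10.27 and 10.21 with vehicle. Its groups overlapped (log2 fold changes 0.04, -0.06 and -0.03). Ube2o, a large enzyme that acts as both E2 and E3, had values of 0.01, 0.05 and 0.07, and Ube2u, which lay at the minimum (3.84 to 4.21), was not tested. Ube2cbp encodes a protein that binds an E2 and is no E2 itself; it gave 6.87, 7.09 and 6.70 with CM-695, 6.55, 6.83 and 6.60 with CM-414, 6.97, 6.84 and 6.66 with SAHA and tadalafil, and 6.73, 6.43 and 6.51 with vehicle. It had the largest log2 fold change with CM-695, 0.33 (SE 0.138, adjusted p = 0.981, limma, past the unadjusted threshold of 0.05), although 1 CM-695 array lay below the highest vehicle array and the call was lost without vehicle replicate 2 or 3 or CM-695 replicate 1 or 2.

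**Figure D5:**
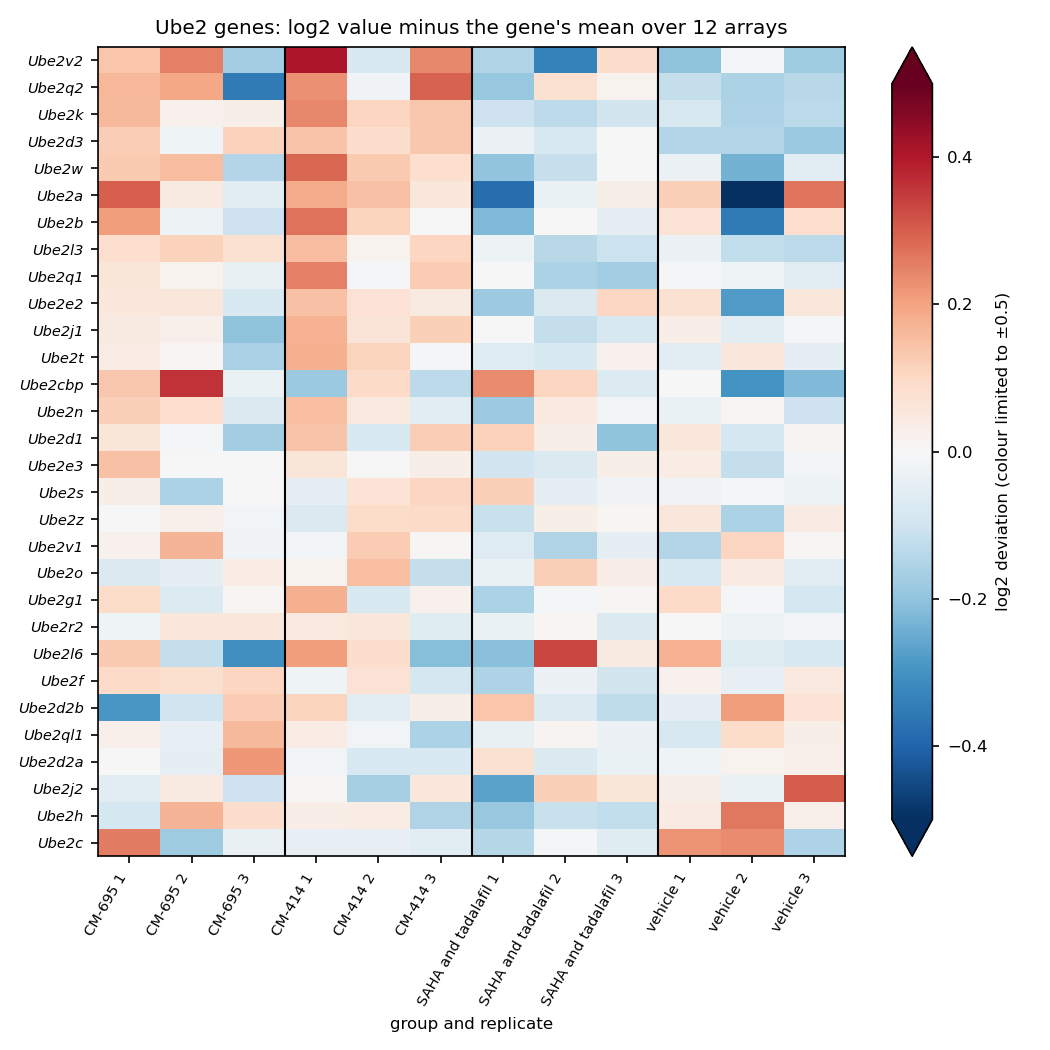
Log2 value of each of the 30 tested Ube2 genes (rows, ordered by the CM-414 fold change) minus that gene's mean over the 12 arrays, per array (columns; from left to right CM-695, CM-414, the combination of SAHA with tadalafil, vehicle), with the colour scale limited to ±0.5. CM-414 replicate 1 is the array with the highest mean deviation (0.109) and SAHA and tadalafil replicate 1 the one with the lowest (-0.084).

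Seen by array, the family moved by small amounts that differed within groups. The mean deviation of the 30 genes from their own means was 0.070, 0.036 and -0.034 with CM-695, 0.109, 0.036 and 0.024 with CM-414, -0.084, -0.031 and -0.031 with SAHA and tadalafil, and -0.002, -0.068 and -0.024 with vehicle. The CM-414 arrays lay above all vehicle arrays and the SAHA and tadalafil arrays did not separate from vehicle, while CM-695 replicate 3 fell among vehicle. The SD over the vehicle arrays was 0.034.

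For CM-695 against CM-414, 9 of 30 genes were higher and 21 lower (49.2% of all probe sets were higher), with 0 called at an unadjusted p under 0.01 (background 1.11%) and 0 at 0.05 (background 5.72%, limma). The split was 15 higher and 15 lower without the arrays that stood apart. For Ube2d3 this difference was -0.05 (95% interval -0.21 to 0.11), for Ube2k -0.09 (-0.25 to 0.07), and for Ube2l3 -0.002 (-0.16 to 0.16). For Ube2j1, whose CM-695 arrays all lay below the CM-414 arrays, it was -0.16 (-0.35 to 0.02, adjusted p = 0.869). As the dose of CM-414 is not known here, these intervals compare the 2 groups of animals as treated.

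Against SAHA and tadalafil, CM-695 had higher means in 23 of 30 genes and lower ones in 7 (55% of all probe sets were higher), with 0 called at 0.01 (background 1.74%) and 3 at 0.05 (background 7.22%, limma). These were Ube2f (log2 difference 0.19), Ube2l3 (0.18) and Ube2k (0.18), with adjusted p from 0.649 to 0.666. Of these, Ube2f (0.15, adjusted p = 0.518) and Ube2k (0.20, adjusted p = 0.409) were no longer past 0.05 without the arrays that stood apart, and with the mean of its probe sets in place of the brightest the Ube2l3 difference was 0.004. Each of the 3 calls was lost with any 1 of 4 or 5 of the 6 arrays left out. CM-414 had higher means than SAHA and tadalafil in 24 of 30 genes and lower ones in 6 (55.7% of all probe sets were higher), with 1 called at 0.01 (background 1.18%) and 6 at 0.05 (background 6.47%). Ube2k was 1.21-fold higher (log2 0.27, SE 0.075, adjusted p = 0.766, limma), and the values of the others were 0.23 for Ube2q1, 0.27 for Ube2w, 0.18 for Ube2l3, 0.19 for Ube2j1 and 0.16 for Ube2d3. With the arrays that stood apart left out, Ube2k was no longer past 0.01 and Ube2d3 no longer past 0.05 (adjusted p = 0.494), and with the mean of its probe sets the Ube2l3 difference was -0.0015. The call of Ube2d3 at 0.05 was lost with any 1 array left out. Those of Ube2q1, Ube2w, Ube2l3 and Ube2j1 were lost with any 1 of 3 to 5 of the 6 arrays, CM-414 replicate 1 in each of them. Ube2k lost its call at 0.01 with any 1 of 4 of the 6 arrays, CM-414 replicate 1 among them, and stayed past 0.05 in all 16 alternatives.

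The neighbouring steps of the pathway were counted in the same fits. E3 ligases had 47 of 59 genes above vehicle with CM-695, 46 with CM-414, and 36 with SAHA and tadalafil, and their median log2 fold changes were 0.073, 0.085 and 0.027. The counts were 43, 39 and 27 without the arrays that stood apart, and the median with SAHA and tadalafil was -0.012, so that its direction turned. Deubiquitinases, which take ubiquitin off again, had 37, 37 and 25 of 43 above vehicle, with medians of 0.072, 0.103 and 0.026, of which the last was 0.006 without the arrays that stood apart. E1 enzymes had 4, 5 and 1 of 6 above vehicle (5, 4 and 3 without the arrays that stood apart), E2 enzymes with other symbols 6, 6 and 6 of 7, and ubiquitin and ubiquitin-like genes 2, 3 and 2 of 6. Since bright genes as a whole leaned upwards with the CM compounds, these counts stand beside the 67.5% and 63.2% given above.

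Of the 121 genes tested in these 5 lists, 0 passed the threshold of 0.01 with CM-695, 5 with CM-414 (4.13%), and 1 with SAHA and tadalafil (0.826%), against backgrounds of 1.12%, 2.45% and 1.12% of probe sets, and none passed an adjusted p of 0.05. At 0.05 the counts were 4 (3.31%), 23 (19%) and 4 (3.31%), against 5.09%, 9.35% and 5.23%. Here too the CM-695 fit held only the arrays of its own groups, so its counts are not like for like with those of CM-414. With CM-414, Atg3, the E2 of the autophagy protein LC3, rose by 0.32 on the log2 scale, Sumo2 by 0.43, the E3 ligase Rnf168, which marks DNA breaks, by 0.42, the ligase scaffold Cul3 by 0.26, and the proteasome-bound deubiquitinase Usp14 by 0.41 (limma). Their adjusted p ran from 0.364 to 0.404. With SAHA and tadalafil, Psmd14, the deubiquitinase of the proteasome lid, rose by 0.23 (adjusted p = 0.877). Among the markers, C1qb of microglia was lower with CM-695 (log2 fold change -0.74, adjusted p = 0.871, limma). The hippocampal neuron marker Lct and the oligodendrocyte marker Opalin were lower with CM-414 (-0.66 and -0.82, adjusted p = 0.398 and 0.404). The mural marker Acta2 was higher with SAHA and tadalafil (0.63, adjusted p = 0.885). Between treatments, Rad18, the ligase that works with Ube2a and Ube2b, was lower with CM-695 than with CM-414 (-0.42, adjusted p = 0.803), Uba6, which loads Ube2z, was higher with CM-695 than with SAHA and tadalafil (0.31, adjusted p = 0.556), and Rnf168 was higher with CM-414 than with SAHA and tadalafil (0.34, adjusted p = 0.766). Opalin was lower with CM-414 than with SAHA and tadalafil (-1.03, adjusted p = 0.766). Each of the 3 comparisons between treatments had 1 of the 121 pathway genes past 0.01 (0.826%), against backgrounds of 1.11%, 1.74% and 1.18%. All 14 of these differences kept their direction without the arrays that stood apart and 10 stayed past 0.01, the exceptions being C1qb, Atg3, Psmd14 and Acta2.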

How the data were processed

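Total RNA of hippocampi (300 ng per sample, 1 sample per array) was labelled and hybridized to Affymetrix Mouse Gene 2.0 ST arrays by the authors, who deposited log2 values after RMA background correction, normalization and summarization (named RMA in the submitters' processing notes, with no version in the sources used here). The table holds 41345 probe sets; the platform annotation gives 1 symbol to 23521, several to 1820 and none to 16004, and all 33 Ube2 genes (38 probe sets) matched the GRCm38.p6 gene table by gene ID. The number of arrays limits the precision. The titles call the samples biological replicas, and the methods name 3 biological replicates per condition for CM-695 and vehicle. The methods also describe more animals per group taken for gene expression than there are arrays. Which animals gave each sample is not stated in the sources used here. The p-values therefore set each group difference against the spread between these samples, moderated over all probe sets tested.

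Each comparison was a two-sided moderated test (limma 3.58.1, R 4.3.3, functions lmFit and eBayes) with Benjamini-Hochberg adjustment over all probe sets tested. CM-695 against vehicle used the 6 arrays of these groups, as in the methods; the other comparisons and the F test over the 4 groups used all 12. Probe sets needed a log2 value over 4 (16 on the linear scale) on all arrays of both groups. Calls were made at an unadjusted p of 0.01, the threshold of the methods, with 0.05 beside it. The fits were tested on simulated data. Figures were drawn with matplotlib.

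Members and gene lists were chosen with earlier results of these data known. Values on every array were given for members called at 0.01 in a comparison with vehicle or the F test. They were also given for members whose treated arrays did not overlap vehicle in 2 or more comparisons, and for a set with known roles. The 3 members with the highest and the 3 with the lowest means were included, with Ube2dnl1 and Ube2u given as ranges only. Members at an unadjusted p under 0.05, and Ube2a, Ube2b and Ube2q2, were added after their values were seen. Of other lists, genes called at 0.01 were named, up to 4 a list. The remaining marker lists were counted in the same way: 2, 4 and 2 of 8 astrocyte markers, 5, 3 and 6 of 8 oligodendrocyte markers, 3, 2 and 5 of 9 endothelial and mural markers, 1, 1 and 6 of 6 choroid plexus markers, and 6, 4 and 2 of 11 hippocampal neuron markers were higher than in vehicle arrays with CM-695, with CM-414, and with the combination.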

Additional observations from a re-analysis of the deposited data

Results flagged for a closer look

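Ube2k passed the unadjusted threshold of 0.01 in the test of CM-414 against SAHA and tadalafil, as did 1.18% of all probe sets. The log2 difference was 0.27 (limma, adjusted p = 0.766), and all 3 CM-414 arrays lay above all 3 arrays of SAHA and tadalafil. The call was lost with any 1 of 4 of the 6 arrays left out. Without the arrays that stood apart the difference was 0.27 and no longer past 0.01 (adjusted p = 0.388). The difference between CM-695 and CM-414 for the same gene was -0.09 (95% interval -0.25 to 0.07).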

How the results depend on the processing

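Each result was computed again under 16 alternatives (21 for the F test), which gave 532 values. Of these, 466 kept their direction and side of the unadjusted threshold of 0.01 or, for counts and medians, stayed close to the value reported. The side was judged at 0.01 also for genes past 0.05 alone, so a lost call at 0.05 did not count as a change. For CM-414 against SAHA and tadalafil, Ube2d3 thus kept its side in all 16 alternatives, while its call at 0.05 was lost with any 1 array left out. The number of Ube2 genes called with CM-695 became 1 (Ube2d3) with all 12 arrays in the fit, and the family's median log2 fold change became 0.013 after a repeated quantile normalization. The number called with CM-414 became 3 (with Ube2l3) with an intensity trend in the prior, 1 (Ube2d3) with only the arrays of both groups in the fit and 1 without the arrays that stood apart, an alternative chosen after seeing the data. Leaving out 1 array at a time it ran from 1 to 2, with 1 without CM-414 replicate 1, and the median ran from 0.036 (without vehicle replicate 2) to 0.128 (without CM-414 replicate 3). For CM-695 against SAHA and tadalafil the count became 1 (Ube2l3) with an intensity trend in the prior. For CM-414 against SAHA and tadalafil it became 3 with the trend, 2 with array weights, 0 with only the arrays of both groups and 0 without the arrays that stood apart, and ran from 0 to 2 with 1 array left out (0 without CM-414 replicate 1 or any of the SAHA and tadalafil arrays). For the F test it became 2 with a minimum of log2 5, 0 after quantile normalization, 3 with the trend, 2 with array weights and 0 without the arrays that stood apart, and ran from 0 to 2 with 1 array left out. With the mean of its probe sets in place of the brightest, Ube2l3 reversed for CM-414 against SAHA and tadalafil (log2 difference -0.0015). Other causes were not tested.

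Samples of the same replicate number did not deviate together (correlations of -0.32 to 0.16), and the main fits did not use the numbers as pairs. Differently numbered samples were not set beside them, so these values cannot decide whether the numbers mark pairs. With the replicate number as a block, the count of the F test became 0 (Ube2k was no longer past 0.01), the counts against vehicle stayed at 0 with CM-695, 2 with CM-414, and 0 with SAHA and tadalafil, and the median with CM-414 was 0.066.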
